A study of Rattus norvegicus with 9 samples.

Results

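AMPA and NMDA receptor subunits were followed in cultured rat hippocampal neurons through the 10 genes Gria1, Gria2, Gria3, Gria4, Grin1, Grin2a, Grin2b, Grin2c, Grin2d and Grin3a. They were taken by symbol from an expression table of 34092 genes, each matched 1 row, and all 10 were among the 15958 genes that passed a filter on low values (mean of at least 0.5 FPKM over all libraries). FPKM, fragments per length of transcript and total of mapped fragments, is a level per length, so that levels of different genes can be compared. The cells came from wild-type (WT) rat hippocampi dissected on embryonic day 17 and were used on day 7 in vitro, without an agent against dividing cells. They received vehicle (Control), 1 nM human NPCT or 1 nM human PCT for 24 h, with 3 libraries per group. PCT, or procalcitonin, is the precursor of calcitonin, and its N-terminal fragment is aminoprocalcitonin (NPCT). According to the methods the RNA came from pools of triplicate samples, whereas the labels number 3 replicates per group, so it is not known whether the libraries came from separate cultures, and the p values measure only the spread between these libraries.

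AMPA and NMDA receptors are tetrameric cation channels opened by glutamate, and together they carry most fast excitatory transmission in the hippocampus. AMPA receptors are assembled from GluA subunits and give the rapid current, and the edited form of GluA2 makes them nearly impermeable to calcium. NMDA receptors need the obligatory GluN1 subunit together with GluN2 or GluN3 subunits, admit calcium and are blocked by magnesium at rest, and the GluN2 subunit sets how long the channel stays open. In the maturing forebrain GluN2B and GluN3A are characteristic of young synapses, whereas GluN2A becomes more abundant later.

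The libraries held 13573056 to 17211642 fragments. NPCT replicate 3 and PCT replicate 3 stood apart from their groups. A chi-square of fragments per gene, divided by its degrees of freedom, was 10.6 and 10.8 for NPCT replicate 3 against the other NPCT libraries, and 4.38 between those. It was 21.6 and 18.9 for PCT replicate 3, and 6.38 between the other PCT libraries, whereas the Control pairs lay between 4.16 and 4.97. Markers of neurons were abundant, among them Stmn2, a regulator of microtubules in growing neurites, with 756 ± 12.5 FPKM in Control (SD, n = 3). Glial markers were present as well. The astrocyte filament gene Gfap had 776 ± 48.1 FPKM in Control (SD, n = 3). Summed over the 13 of 14 microglia markers in the table, none at 0 in every library, the level was 71.3 to 82.6 FPKM in Control and 51.7 to 55.9 in PCT. In NPCT it was 76.4, 80.6 and, in replicate 3, 236 FPKM. The sum of the 13 neuron markers was 2358 to 2453 FPKM in Control, 2178 to 2266 in NPCT and 2326 to 2554 in PCT. The 10 astrocyte markers summed to 2150 to 2217 FPKM in PCT, below Control (2493 to 2673) and NPCT (2452 to 2712). Of these, 9 were lower in PCT than in Control and 1, Gfap, was higher, at 899 to 931 against 734 to 828 FPKM, without overlap. In bulk RNA of this kind, fewer cells of a type and less RNA per cell cannot be told apart.

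**Figure D1:**
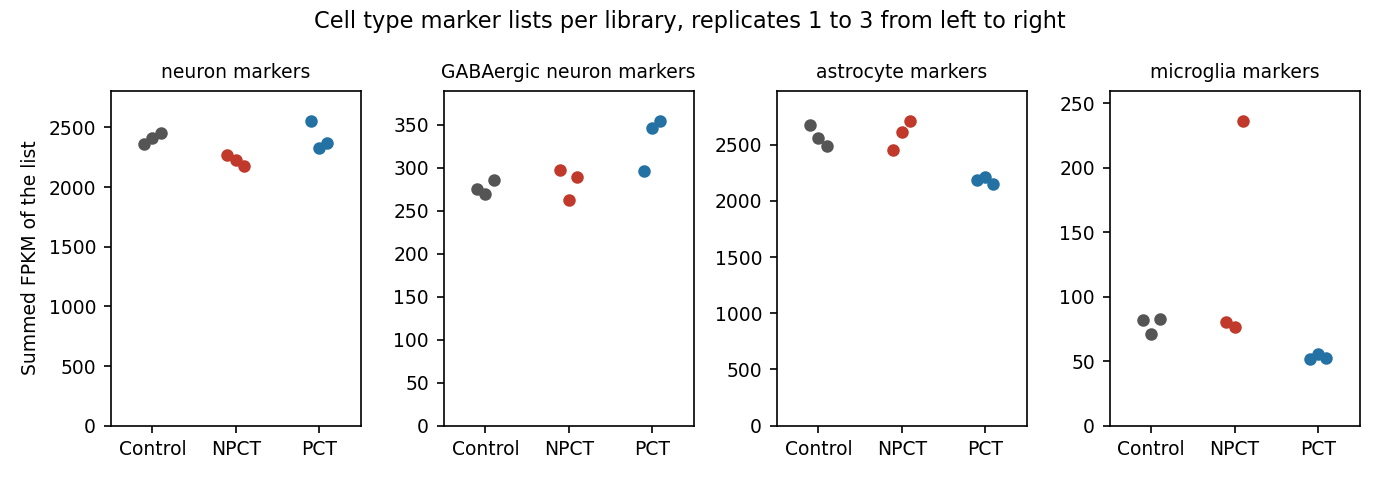
Summed FPKM of the neuron, GABAergic neuron, astrocyte and microglia marker lists (y axes start at 0), with 1 point per library and the groups on the x axis. The microglia sum of NPCT replicate 3, 236 FPKM, is the highest, with the others between 51.7 and 82.6, and the NPCT neuron sums lie below those of Control.

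Among the AMPA receptor genes, Gria2 had the highest level and the order was Gria2, Gria1 and then Gria3 and Gria4 in every group. Gria2 (ENSRNOG00000054204, chr2:179584308-179704629, Rnor_6.0), the gene of the subunit that restricts calcium entry, had 102, 105 and 98.7 FPKM in Control. It had 89.0, 93.1 and 73.7 FPKM in NPCT and 94.4, 93.1 and 86.0 in PCT. Every NPCT and PCT library was thus below every Control library, and NPCT replicate 3 was the lowest of all 9. Gria1 (ENSRNOG00000045816, chr10:42614713-42760200), whose subunit enters synapses during potentiation, had 61.7, 62.6 and 62.4 FPKM in Control. It had 64.5, 64.8 and 59.7 in NPCT and 61.6, 62.5 and 60.0 in PCT. The groups overlapped, and the SD was 0.789% of the mean in Control, the smallest relative spread of any subunit gene in any group.

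Gria3 and Gria4 were about as abundant as each other. Gria3 (ENSRNOG00000007682, chrX:127562660-127829753), which encodes the X-linked partner of GluA2 in many forebrain receptors, had 12.9, 13.5 and 12.8 FPKM in Control. It had 10.6, 10.7 and 10.1 FPKM in NPCT, all below the Control libraries, and 13.8, 12.4 and 11.4 in PCT. The PCT libraries overlapped those of Control. Gria4 (ENSRNOG00000006957, chr8:1548146-2045817), the gene of a subunit prominent in early postnatal hippocampus and in interneurons, had 12.9, 13.5 and 13.2 FPKM in Control. It had 10.2, 11.2 and 9.27 FPKM in NPCT and 13.6, 12.9 and 12.9 in PCT. Each NPCT library was below all libraries of the other groups.

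Among the NMDA receptor genes, Grin1 led in every group and was followed by Grin2b. Grin1 (ENSRNOG00000011726, chr3:2506896-2534663), the obligatory glycine-binding subunit, had 39.5, 39.2 and 42.0 FPKM in Control. It had 43.8, 40.2 and 42.2 FPKM in NPCT and 39.5, 34.9 and 39.5 in PCT, so that NPCT lay above PCT and overlapped Control. Grin2b (ENSRNOG00000008766, chr4:169560387-169999873), the juvenile GluN2 subunit, had 17.3, 14.8 and 18.1 FPKM in Control, 17.5, 18.8 and 11.0 in NPCT and 16.1, 13.1 and 14.4 in PCT. The groups overlapped, and its SD in NPCT was 26.3% of the mean, the largest of any subunit gene, with replicate 3 the low library.

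Grin2a (ENSRNOG00000033942, chr10:5930298-6119990), the GluN2 subunit of mature synapses, had 4.21, 4.49 and 4.14 FPKM in Control. It had 5.42, 4.71 and 3.50 FPKM in NPCT and 4.67, 4.67 and 4.04 in PCT, and the groups overlapped. Grin2d (ENSRNOG00000021063, chr1:101820461-101856881), a slowly closing subunit found in interneurons of the hippocampus, had 4.34, 4.43 and 4.09 FPKM in Control. It had 5.22, 4.97 and 4.61 FPKM in NPCT, all above Control, and 4.42, 3.29 and 4.72 in PCT. Grin2c (ENSRNOG00000003280, chr10:103798291-103816287), best known from cerebellar granule cells, was the least abundant, at 0.628, 0.460 and 0.473 FPKM in Control. It had 0.643, 0.552 and 0.416 FPKM in NPCT and 0.693, 0.618 and 0.940 in PCT, which rested on 30 to 77 fragments per library and overlapped between groups.

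Grin3a (ENSRNOG00000005723, chr5:64928620-65073012) encodes GluN3A, a subunit of juvenile receptors that lowers their calcium permeability. It had 7.48, 7.20 and 7.09 FPKM in Control. It had 5.51, 5.11 and 4.55 FPKM in NPCT and 8.36, 7.63 and 6.94 in PCT. Each NPCT library was below all 6 other libraries, and Control and PCT overlapped.

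**Figure D2:**
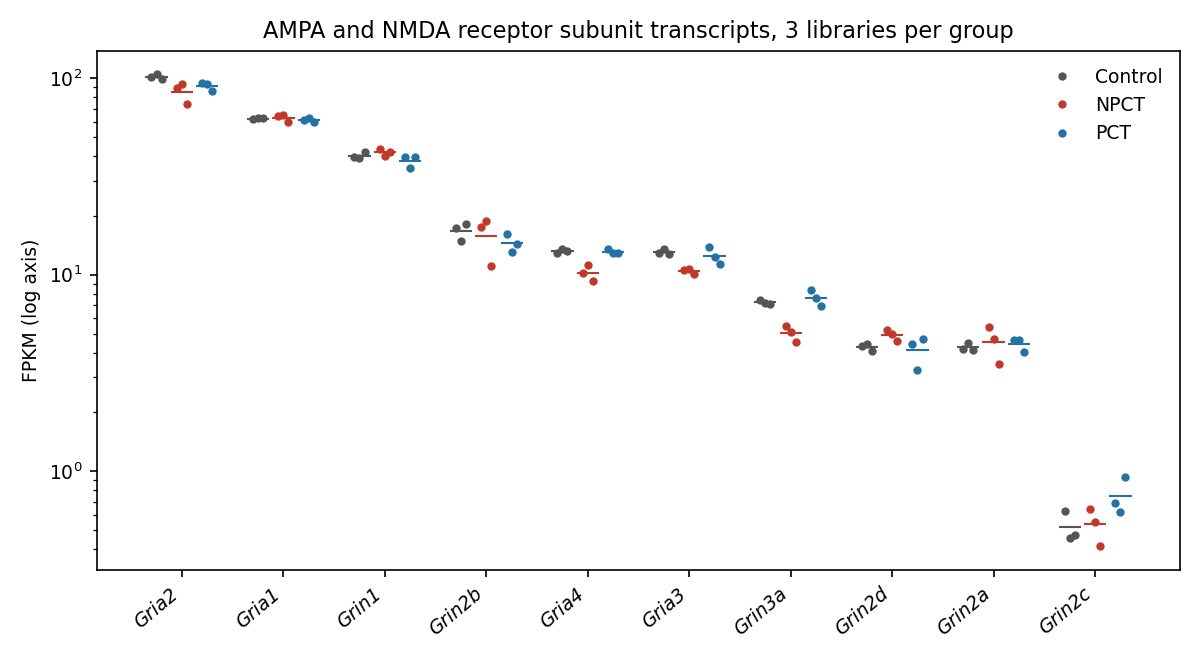
FPKM (log axis) of the 10 subunit genes in decreasing order of level, with 1 point per library, replicates 1 to 3 from left to right within each group, and a line at the group mean. The NPCT points of Gria3, Gria4 and Grin3a lie below all points of the other groups, and those of Gria1 and Grin2b overlap them.

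The means spanned from 102 ± 2.95 FPKM for Gria2 to 0.521 ± 0.0936 for Grin2c in Control (SD, n = 3). Ranked among the 15958 genes by mean over all libraries, Gria2 was at percentile 94.9, Gria1 at 91.7 and Grin1 at 85.7, and Grin2c at 2.24. Neighbours in the order whose libraries overlapped in Control were Gria4 and Gria3 (13.2 and 13.1 FPKM) and Grin2d and Grin2a (4.29 and 4.28). In NPCT the mean of Grin3a (5.06 FPKM) was next to that of Grin2d (4.93) and their libraries overlapped, whereas in Control Grin3a was 1.69-fold higher than Grin2d in level. In PCT Grin2b (14.5 FPKM) and Gria4 (13.1) also overlapped. NPCT replicate 3 was the lowest library of its group for 9 of the 10 genes, the exception being Grin1.

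As shares of summed FPKM, Gria2 made up 53.4 ± 0.590% of the AMPA receptor transcripts in Control (SD, n = 3), 50.4 ± 1.86% in NPCT and 51.2 ± 0.567% in PCT. Gria1 made up 32.7 ± 0.563%, 37.4 ± 1.55% and 34.5 ± 0.833%, respectively. Neither share overlapped between Control and the peptide-treated groups, where the levels of 40.3% (NPCT) and 24.9% (PCT) of all genes tested did not either. The mean level of Gria1 was 62.2 FPKM in Control, 63.0 in NPCT and 61.4 in PCT. Its larger share thus came with a lower sum of the other AMPA genes. The AMPA sum was 187 to 194 FPKM in Control, 153 to 180 in NPCT and 170 to 183 in PCT, also without overlap with Control, and NPCT replicate 3 held the lowest value. The NMDA sum overlapped between all groups, at 70.5 to 75.9 FPKM in Control, 66.3 to 78.1 in NPCT and 64.2 to 73.8 in PCT. Grin1 made up 54.9 ± 0.967% of it in Control, 57.9 ± 5.03% in NPCT and 54.7 ± 1.26% in PCT. Grin3a made up 9.91 ± 0.497% in Control and 11.0 ± 1.05% in PCT. In NPCT it made up 6.93 ± 0.111%, and all 3 NPCT libraries had a lower share than every library of the other groups.

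**Figure D3:**
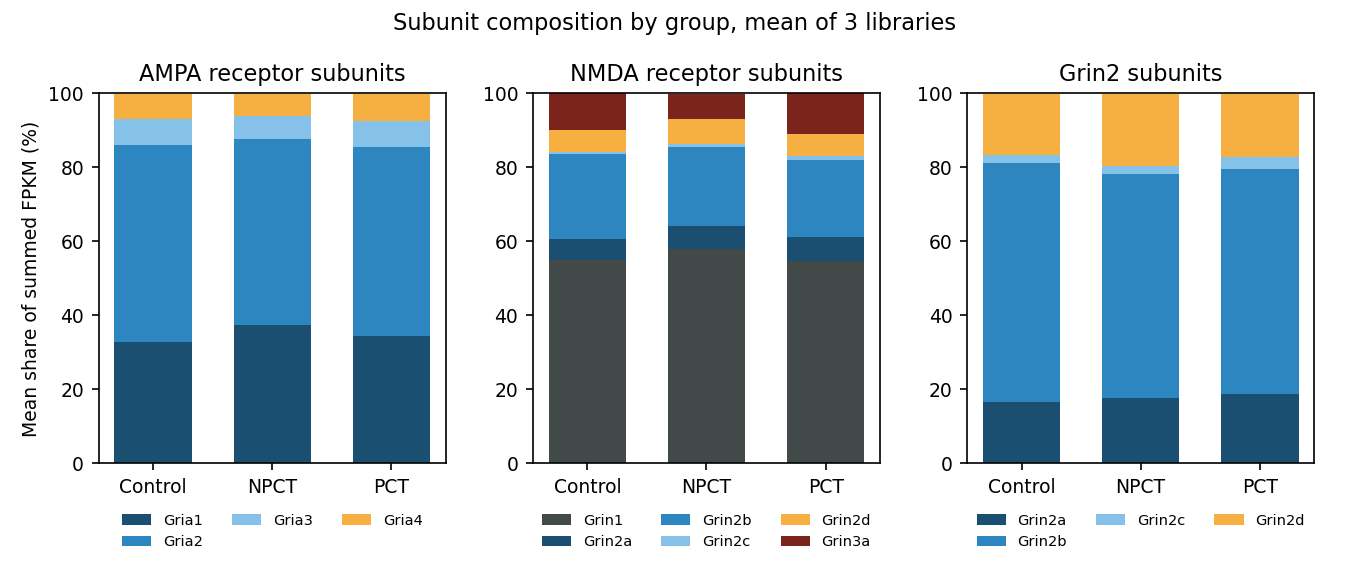
Mean share (%) of each subunit gene in the summed FPKM of the AMPA, NMDA and Grin2 genes, 3 libraries per group, each bar adding to 100%. Grin2b is the largest part of the Grin2 bar in every group, and the Grin3a part of the NMDA bar is 6.93% in NPCT against 9.91% in Control and 11.0% in PCT.

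The comparison of NPCT with Control asks whether the peptide altered subunit transcripts. Fits were made with limma on log2(FPKM + 0.1) over all genes, and a gene was called where its adjusted p did not exceed 0.05 and its fold change was greater than 1.5. None of the 10 subunit genes was called, where 0.219% of all genes tested were. In this limma fit 4 of the 10 had an unadjusted p under 0.05, all lower in NPCT, against 14.9% of all genes with such a p and a lower level, and 29.3% in either direction. With limma-voom on recovered fragments the counts were likewise 0 called and 4 below that p. The groups did not overlap for 5 of 10 (Gria2, Gria3, Gria4 and Grin3a lower, Grin2d higher), close to the 40.3% of all genes tested.

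Grin3a had the largest difference, 0.699-fold the Control level, or -0.52 on the log2 scale (SE 0.10, 95% interval -0.75 to -0.28, limma adjusted p = 0.0508). Gria4 was at 0.773-fold (log2 -0.37, SE 0.080, limma adjusted p = 0.0516) and Gria3 at 0.799-fold (log2 -0.32, SE 0.082, limma adjusted p = 0.0590). Gria2 was at 0.836-fold (log2 -0.26, SE 0.087, limma adjusted p = 0.0949). The first 3 lie just outside the threshold for the adjusted p and within it when only the Control and NPCT libraries were fitted (limma adjusted p = 0.0170 for Grin3a, 0.0259 for Gria4 and 0.0185 for Gria3), in which 18.8% of all genes also were. Over the 21 settings tried the limma adjusted p ran from 0.0104 to 0.170 for Grin3a, from 0.0168 to 0.170 for Gria4 and from 0.0158 to 0.182 for Gria3, and was at most 0.05 in 9, 7 and 4 of them. No fold change of theirs exceeded 1.5 in any.

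For the other subunits the log2 differences were 0.02 for Gria1 (95% interval -0.10 to 0.13), 0.06 for Grin1 (-0.09 to 0.22) and 0.06 for Grin2a (-0.29 to 0.42). They were -0.11 for Grin2b (-0.54 to 0.31), 0.20 for Grin2d (-0.12 to 0.51) and 0.03 for Grin2c (-0.76 to 0.83). The interval of Gria1 is narrow, and that of Grin2c includes changes of more than 1.5-fold in either direction.

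Other measures moved with these differences. The 13 neuron markers had a median log2 difference of -0.21 between NPCT and Control, with 4 higher and 9 lower. At an unadjusted limma p under 0.05 there were 0 higher and 7 lower. Over all genes 29.3% had such a p and 14.9% had it with a lower level, the background for every marker list in this paragraph. None of the neuron markers was called, and 2 of the 4 higher ones did not overlap Control. Among the lower ones Snap25, a SNARE protein of synaptic vesicle release, had 121 ± 2.56 FPKM in Control and 90.8 ± 5.92 in NPCT (SD, n = 3, log2 -0.42, limma adjusted p = 0.0541). Of 11 tested GABAergic neuron markers 7 were higher and 4 lower (median log2 0.08), and only Gad2, an enzyme of GABA synthesis, had an unadjusted p under 0.05, at 25.4 ± 1.35 FPKM in Control and 18.8 ± 0.682 in NPCT (log2 -0.43, limma adjusted p = 0.0516). The 8 glutamatergic neuron markers went both ways, with 2 higher and 4 lower at an unadjusted limma p under 0.05, 0 called and a median log2 difference of -0.10. Slc17a7, a vesicular glutamate transporter, had 114 ± 2.67 FPKM in Control and 139 ± 9.99 in NPCT (log2 0.28, limma adjusted p = 0.0539). Neurod6, a transcription factor of these neurons, had 111 ± 1.21 and 87.8 ± 3.98 FPKM (log2 -0.34, limma adjusted p = 0.0508). The 10 oligodendrocyte lineage markers had a median log2 difference of 0.28, with 5 higher and 0 lower at an unadjusted limma p under 0.05 and 0 called. Their sum was 475 to 491 FPKM in Control and 517 to 553 in NPCT, without overlap, and 431 to 449 in PCT, where the sum was lower than in Control while the median log2 difference was 0.19. Of the 13 microglia markers 12 were higher with NPCT (median log2 0.49), with 1 at an unadjusted limma p under 0.05 and 0 called. That was C1qa, a complement subunit made by microglia, at 3.78 to 5.16 FPKM in Control and 8.78 to 38.2 in NPCT, without overlap (log2 1.66, limma adjusted p = 0.0799). Of 4 dividing cell markers 2 were lower at an unadjusted limma p under 0.05 and 0 were called, Mki67 at log2 -0.51 (limma adjusted p = 0.129) and Top2a at -0.33 (0.159), both without overlap. The slope of log2 level per doubling of gene length was -0.026 to -0.018 in the NPCT libraries and -0.00061 to 0.029 in Control. In PCT it was 0.021 and 0.027 in replicates 1 and 2 and -0.028, below every NPCT library, in replicate 3. The subunit genes had a median length of 5168.5 bases against 2136 for all genes tested. With this trend removed the log2 difference was -0.48 for Grin3a (limma adjusted p = 0.0483), -0.27 for Gria4 (0.0607), -0.23 for Gria3 (0.0799) and -0.13 for Gria2 (0.191). Without NPCT replicate 3, the library with the high microglia markers, it was -0.44 for Grin3a (limma adjusted p = 0.132), -0.30 for Gria4 (0.132), -0.30 for Gria3 (0.144) and -0.16 for Gria2 (0.190). The part of the levels of these marker lists in the subunit differences was not tested.

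The comparison of NPCT with PCT asks whether the peptide and its precursor left different levels. Grin3a was the only subunit gene called, at 0.666-fold the PCT level (95% interval 0.566 to 0.783), or -0.59 on the log2 scale (SE 0.10, limma adjusted p = 0.00942), where 5.75% of all genes tested were called and 1.37% were called lower. Gria4 passed the adjusted p but not the fold change, at 0.779-fold (log2 -0.36, SE 0.080, limma adjusted p = 0.0206), where 16.3% of all genes passed the adjusted p. Gria3 was at 0.838-fold (log2 -0.26, SE 0.082, limma adjusted p = 0.0641) and, like these, had NPCT libraries all below the PCT libraries. Grin1 had NPCT libraries all above PCT (1.11-fold, log2 0.15, SE 0.067, limma adjusted p = 0.162), and its log2 difference was 0.089 without PCT replicate 2 (limma adjusted p = 0.417). In all 4 of 10 subunit genes did not overlap, against 33.4% of all genes tested. The log2 differences of the other 6 ranged from -0.41 (Grin2c) to 0.26 (Grin2d), with limma adjusted p values of 0.228 to 0.983. That of Grin2d was 0.11 without PCT replicate 2 (limma adjusted p = 0.589).

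Grin3a kept a limma adjusted p under 0.05 in all 21 settings (0.00371 to 0.0475), with a log2 difference of -0.65 to -0.51, the former without PCT replicate 3. The call was lost through the fold change in 6 of them, among them without NPCT replicate 3 (log2 -0.51, limma adjusted p = 0.0259), without PCT replicate 1 (-0.52, 0.0366) and with the length trend removed (-0.56, 0.00792). Without NPCT replicate 3 Gria4 was at -0.29 (limma adjusted p just above 0.05), and over all settings its limma adjusted p was 0.0153 to 0.0743 and at most 0.05 in 16. Neuron and glial markers differed in this comparison as well. Limma called 8 of 13 microglia markers and 3 of 10 astrocyte markers higher in NPCT, where 699 of all 15958 genes tested were. Of the 13 neuron markers 6 were lower and 2 higher at an unadjusted limma p under 0.05, which 5286 of the 15958 genes had in either direction. Among these neuron markers 1 was called, lower. That gene was Elavl4, an RNA-binding protein of neurons, with 18.5 ± 0.808 FPKM in NPCT and 28.0 ± 2.64 in PCT (SD, n = 3). Nefl, a neurofilament gene, was higher in NPCT, at 87.1 ± 5.96 against 73.5 ± 3.67 FPKM (limma adjusted p = 0.0342), under the fold threshold. The part of these markers in the subunit differences was not tested.

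**Figure D4:**
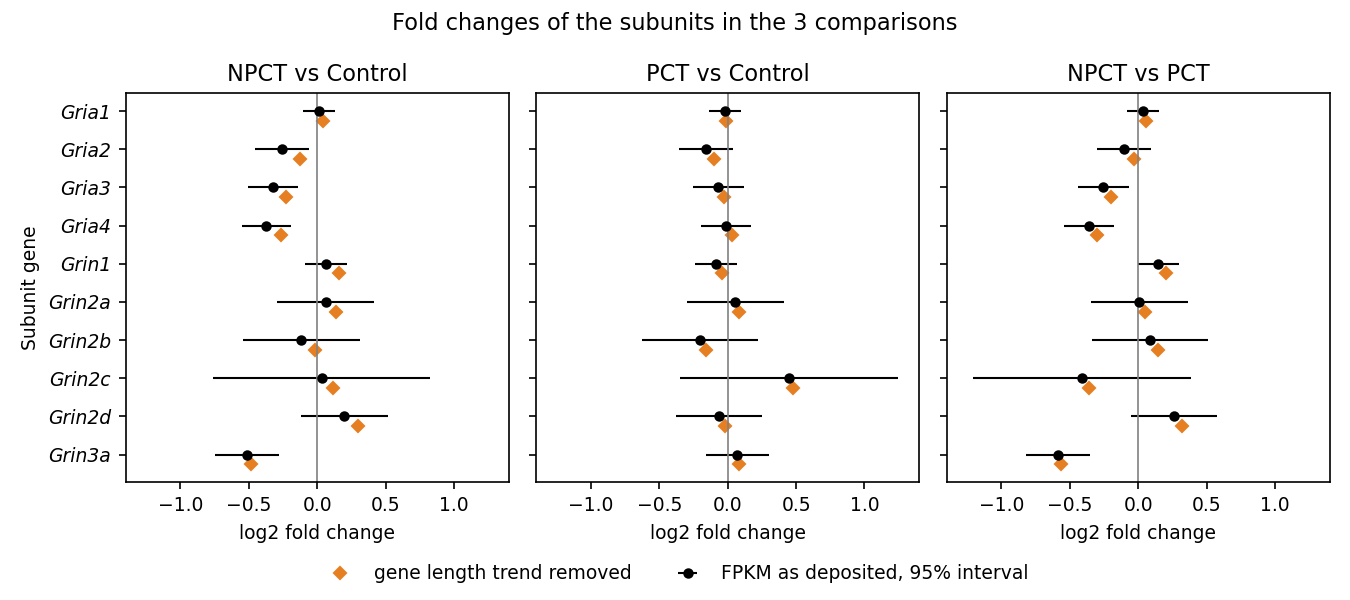
Log2 fold changes of the 10 subunit genes (first group minus second) in the 3 comparisons, as black points with 95% intervals from limma, and as orange diamonds with each library's trend with gene length removed. Grin3a lies at -0.52 against Control and at -0.59 against PCT, and the PCT against Control panel has all intervals across 0.

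Gria4 and Grin3a, the genes with an adjusted p under 0.05 in this comparison, were among the 5 of 10 members found in a RefSeq table of promoters (GRCr8). The others found were Grin1, Grin2c and Grin2d. Within the 250 bases before the tabulated start site, a set of 4 motifs was searched on both strands. The E-box was searched for as CAGCTG. The other motifs were the GC box, spelled GGGCGG, the cAMP response element, spelled TGACGTCA, and the TATA box, spelled TATAAA. Gria4 and Grin3a held the E-box, which 4007 of 33469 promoter windows of the same length held, and none of the other 3 members did. The other motifs, held by 30.5%, 1.59% and 12.9% of windows, matched no member, although the GC content of the 5 windows was 57.6 to 60.4% against a median of 51.2%. The 30 bases around the E-box are shown because these genes share the letters and a direction in NPCT against PCT. They lie on the minus strand of GRCr8, at chr8:10319959-10319988 for Gria4 and chr5:69001577-69001606 for Grin3a, read 5′ to 3′ along the gene with the E-box letters in capitals.
Gria4: tctttgctgCAGCTGCAGCTGcagcaagga
Grin3a: aagcaggttcggCAGCTGcttttccgcacc
The Gria4 window holds the letters in tandem, 2 matches, and Grin3a holds 1 match. The annotated span of either gene reaches upstream of the tabulated start site, so these stretches lie within the gene as annotated. A match of letters describes the sequence and does not show that a factor binds there.

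The comparison of PCT with Control gave no called subunit gene, where 2.31% of all genes tested were called, and 0 of 10 had an unadjusted p under 0.05 in limma, against 18.9% of all genes. With limma-voom the counts were the same. Only Gria2 did not overlap (0.897-fold, log2 -0.16, SE 0.087, limma adjusted p = 0.379), against 24.9% of all genes tested. Without PCT replicate 3 its log2 difference was -0.11 (limma adjusted p = 0.539). Grin3a was at 1.05-fold (95% interval 0.894 to 1.23), Gria4 at 0.992-fold (0.875 to 1.12), Gria3 at 0.954-fold (0.839 to 1.08) and Grin1 at 0.943-fold (0.848 to 1.05), so that these intervals exclude a change above 1.5-fold. The same holds of Gria1, Gria2, Grin2a and Grin2d, whereas Grin2b (0.647 to 1.17) and Grin2c (0.785 to 2.37) had wider intervals. Both peptide comparisons used the same Control libraries.

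Subunit ratios, some of which shift during development and others of which describe composition, were taken per library, 9 ratios in 3 comparisons. They were tested as log2 values by exact two-sided permutation tests, in which 3 against 3 libraries cannot give a p below 0.1. In 11 of the 27 comparisons the groups did not overlap, each with this smallest p (exact permutation test p = 0.1, adjusted over the 27 p = 0.245). These were 5 of 9 between NPCT and Control, 4 of 9 between PCT and Control and 2 of 9 between NPCT and PCT, where the share among single genes was 40.3%, 24.9% and 33.4%. The ratios share genes, so these counts are not of independent ratios. All 4 between PCT and Control contain Gria2, as do all but Grin3a / Grin1 of the 5 between NPCT and Control.

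The Grin2a / Grin2b ratio, which increases as hippocampal synapses mature, was 0.244, 0.304 and 0.228 in Control. It was 0.310, 0.251 and 0.317 in NPCT and 0.289, 0.358 and 0.281 in PCT. All groups overlapped, the log2 difference from Control was 0.18 for NPCT and 0.26 for PCT (exact permutation p = 0.2 and 0.3), and these were near the SDs of the log2 ratio, 0.19 to 0.21. Both differences depended on single libraries. Leaving out Control replicate 2 raised both. Leaving out NPCT replicate 3 lowered the NPCT difference, and leaving out PCT replicate 2 lowered the PCT difference. The Grin2d / Grin2b ratio also overlapped between the groups, at 0.259 ± 0.0380 in Control, 0.327 ± 0.0803 in NPCT and 0.285 ± 0.0392 in PCT (SD, n = 3). In NPCT it was 0.298, 0.265 and, in replicate 3, 0.417, so that the higher NPCT mean rests largely on that library. The sum of the Grin2 genes over Grin1 was 0.641 ± 0.0271, 0.615 ± 0.134 and 0.628 ± 0.0249.

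The Grin3a / Grin1 ratio, in which the juvenile GluN3A is set against the obligatory subunit, was 0.189, 0.184 and 0.169 in Control. It was 0.126, 0.127 and 0.108 in NPCT and 0.212, 0.218 and 0.176 in PCT. The NPCT libraries were below those of both other groups, by 0.58 and 0.74 on the log2 scale, several times the SDs of 0.09 to 0.17. Without NPCT replicate 3 the differences were -0.50 and -0.66.

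Among the AMPA ratios, Gria1 / Gria2 was 0.608, 0.599 and 0.632 in Control, 0.725, 0.697 and 0.810 in NPCT and 0.652, 0.672 and 0.698 in PCT. Every NPCT and PCT library was above Control, by 0.28 and 0.14 on the log2 scale on average, and NPCT and PCT overlapped. Gria2 is the longest of the 10 genes and Gria1 the shortest, and with the length trend removed these differences were 0.17 and 0.085. The ratio of Gria2 to the other AMPA genes was lower than in Control in both groups, at 1.15 ± 0.0270 in Control, 1.02 ± 0.0742 in NPCT and 1.05 ± 0.0236 in PCT (SD, n = 3). It also contains Gria2, the longest of the 10 genes. In NPCT it was 1.04, 1.07 and, in replicate 3, 0.933, so that leaving out replicate 3 made the difference from Control smaller.

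Gria3 / Gria2 was 0.129 ± 0.00118 in Control, 0.123 ± 0.0115 in NPCT and 0.137 ± 0.00767 in PCT (SD, n = 3). PCT lay above Control without overlap, at 0.146 in replicate 1 and 0.133 and 0.132 in replicates 2 and 3. NPCT overlapped both only through replicate 3, at 0.136. Its replicates 1 and 2, at 0.119 and 0.115, lay below all libraries of the other groups. Gria4 / Gria2 separated all 3 groups. It was 0.127, 0.129 and 0.134 in Control, 0.115, 0.120 and 0.126 in NPCT and 0.144, 0.138 and 0.150 in PCT, so that NPCT lay below and PCT above Control. The log2 difference between NPCT and PCT was -0.26 (SDs 0.067 and 0.060). Against Control, Gria4 itself was at 0.773-fold in NPCT and 0.992-fold in PCT, and Gria2 at 0.836-fold and 0.897-fold. The higher PCT ratio thus came with a lower Gria2 and a nearly equal Gria4. The 12 GABAergic neuron markers summed to 296 to 354 FPKM in PCT, above Control (270 to 285) and overlapping NPCT (263 to 297). Of the 11 tested, 6 were higher and 5 lower in PCT than in Control. The part of these markers in the Gria4 / Gria2 ratio was not tested. The sum of AMPA over NMDA genes was 2.60 ± 0.147 in Control, 2.32 ± 0.0925 in NPCT and 2.57 ± 0.214 in PCT, and NPCT did not overlap Control (log2 -0.16).

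**Figure D5:**
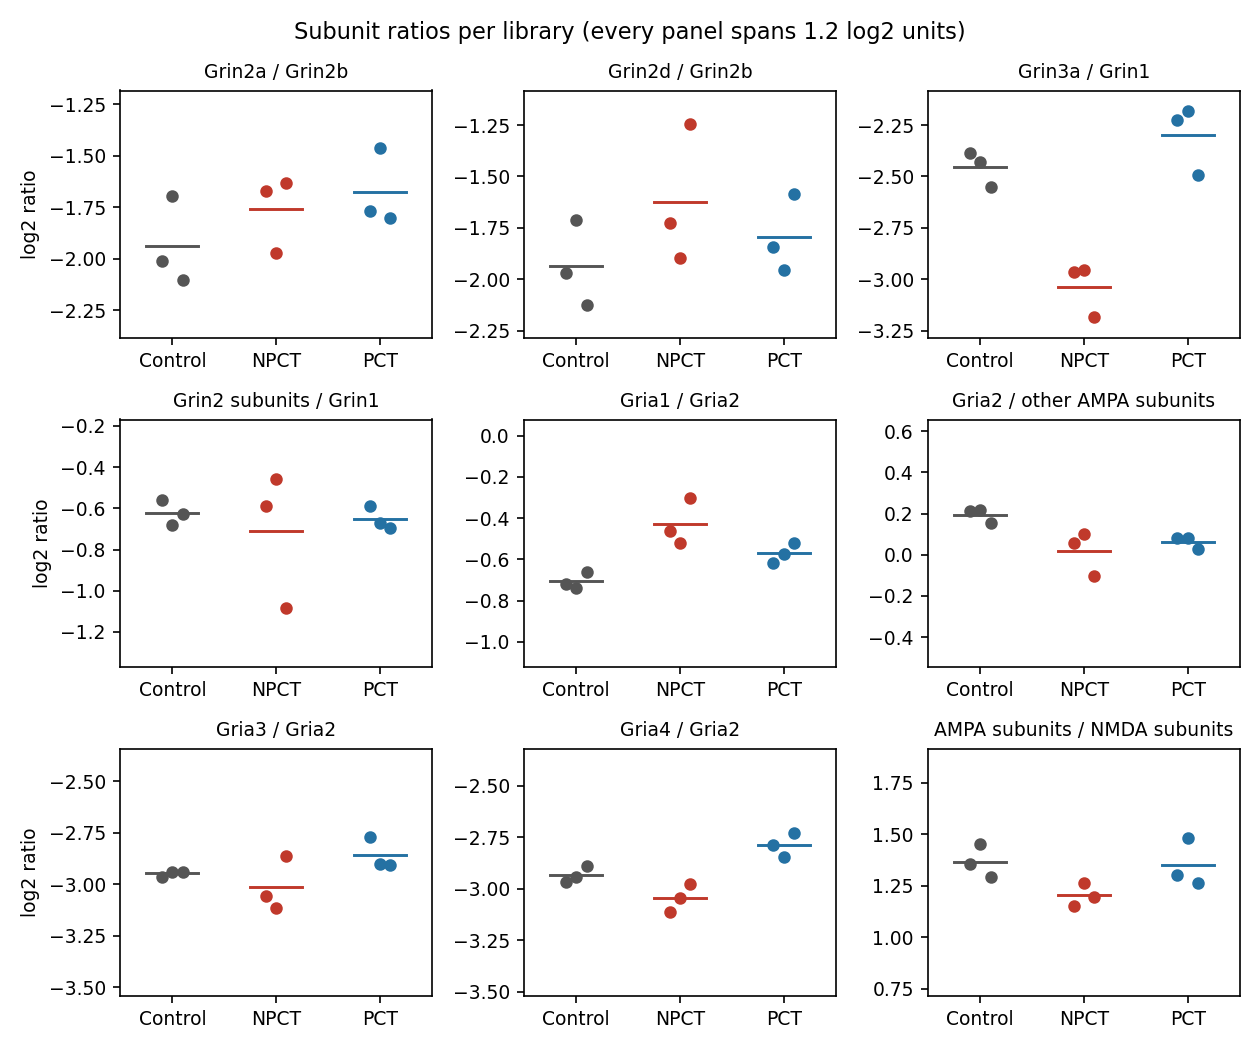
Log2 of 9 subunit ratios per library (FPKM + 0.1 summed over the genes named), replicates 1 to 3 from left to right within each group and a line at the mean, all panels on axes of equal span. Grin3a / Grin1 is lowest in NPCT and Gria4 / Gria2 separates all groups, whereas the groups overlap for Grin2a / Grin2b.

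Genes that act with the subunits were taken from lists written by symbol. Of 19 tested AMPA receptor auxiliary and assembly proteins, none was called against Control with NPCT or PCT, and limma gave an unadjusted p under 0.05 to 3 higher and 2 lower with NPCT, against 29.3% of all genes, and to 2 lower with PCT, against 18.9%. Cnih2, a cornichon that slows AMPA receptor closing and the most abundant of the list, had 384 ± 26.1 FPKM in Control, 432 ± 18.1 in NPCT and 343 ± 30.7 in PCT (SD, n = 3). Its log2 difference was 0.17 between NPCT and Control (limma adjusted p = 0.197), and 0.33 between NPCT and PCT (limma adjusted p = 0.0272), under the fold threshold. Shisa8, of the CKAMP family of AMPA receptor auxiliary proteins, was the 1 gene of the 19 called between NPCT and PCT, near the 5.75% of all genes, at 4.96 ± 0.864 against 3.12 ± 0.422 FPKM (log2 0.64, limma adjusted p = 0.0345). Shisa7 had the smallest p of the list between NPCT and Control, at 21.5 ± 1.3 against 24.8 ± 0.219 FPKM (log2 -0.21, limma adjusted p = 0.0848). Abhd6, a hydrolase that limits the surface delivery of AMPA receptors, had the smallest between PCT and Control, at 17.0 ± 0.415 against 19.9 ± 0.0594 FPKM (log2 -0.22, limma adjusted p = 0.0849).

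Of 29 tested trafficking and signalling partners, none was called in any comparison, with 3 higher and 8 lower at an unadjusted limma p under 0.05 between NPCT and Control and 2 higher and 4 lower between PCT and Control. Over all genes 29.3% had such a p between NPCT and Control and 18.9% between PCT and Control. Limma gave 5 of the 29 an adjusted p of at most 0.05 between NPCT and PCT, near the 16.3% of all genes. The median log2 difference was -0.04 with NPCT and 0.0013 with PCT, where it was 0.0062 and 0.0046 over all genes. Camk2b, a subunit of the calcium/calmodulin kinase that phosphorylates both receptor kinds, had 155 ± 6.89 FPKM in Control, 183 ± 8.73 in NPCT and 168 ± 18.8 in PCT (SD, n = 3, limma adjusted p = 0.0986 for NPCT). Ppp3cb, a catalytic subunit of calcineurin, had 146 ± 6.09, 121 ± 4.32 and 151 ± 14.1 FPKM. Its log2 difference was -0.27 between NPCT and Control (limma adjusted p = 0.0655) and -0.31 between NPCT and PCT (limma adjusted p = 0.0269), the direction of Gria4 and Grin3a.

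RNA-editing enzymes and regulators of subunit transcripts gave no call in 11 rows (10 symbols, Rcor1 having 2 rows), and 2 were lower with NPCT at an unadjusted limma p under 0.05, against 14.9% of all genes, and 0 with PCT, where 18.9% had such a p. Adar, an enzyme that edits adenosine in RNA, had 31.7 ± 0.352 FPKM in Control, 31.5 ± 1.07 in NPCT and 32.6 ± 1.06 in PCT (SD, n = 3). Sp4, a transcription factor enriched in neurons, had 8.26 ± 0.514, 6.04 ± 0.524 and 7.93 ± 1.52 FPKM (log2 -0.45 between NPCT and Control, limma adjusted p = 0.0807). Fmr1, whose RNA-binding protein binds synaptic transcripts, had 11.6 ± 0.255, 10.5 ± 1.08 and 12.7 ± 0.265 FPKM (log2 0.13 between PCT and Control, limma adjusted p = 0.444).

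The genes whose levels were most like the mean profile of the 10 subunits (log2 levels centred per gene and averaged) were sought among 9650 genes with a mean of at least 5 FPKM. They were Epb41 (Pearson r = 0.978 over 9 libraries), Mysm1 (0.964), Tut7 (0.962), Tnrc6c (0.957) and Slc4a7 (0.953). These correlations share their libraries, and the profile itself lay between -0.03 and 0.11 in 8 libraries and at -0.26 in NPCT replicate 3, so that it rests largely on that library. Epb41, which encodes a protein linking the membrane to the spectrin skeleton, had 15.2 ± 0.337 FPKM in Control, 13.3 ± 2.57 in NPCT and 15.1 ± 1.27 in PCT (SD, n = 3).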

How the data were processed

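Libraries from poly-A selected RNA were sequenced by a service company (Novogene), and reads were aligned with HISAT2 2.0.5 and counted per gene with featureCounts 1.5.0-p3. The authors deposited FPKM values computed from these counts, unlogged, and DESeq2 1.20.0 was used in the study. The submitters' processing notes also name CASAVA, StringTie 1.3.3b and the build Rnor_6.0. No fold changes or p values of the authors were used, and 0 columns of per-sample values were left out.

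FPKM times gene length came out as whole multiples of a library's step for 100% of nonzero values (tolerance 0.01), hence the fragments per gene. Libraries were scaled by median ratios to a geometric mean library. This factor was 1.006 in all 9, so the deposited values already carried such a scaling. Genes with a mean of at least 0.5 FPKM (15958) were fitted as log2(FPKM + 0.1) with limma 3.58.1 in R 4.3.3, 1 mean per group over all 9 libraries and an intensity trend, with Benjamini-Hochberg adjustment over all genes in each comparison. Fold changes are on this log2 scale. It understates changes of low genes such as Grin2c. Calls needed both an adjusted p not over 0.05 and a fold change greater than 1.5. Ratios were tested in Python 3.11.15 with scipy 1.17.1. Scripts were tested on simulated data. Intervals of 95% cover the spread between libraries.

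The subunit genes, ratios and lists were chosen with earlier results of these data known. Named were all 10 subunit genes and, per list, the most abundant gene, the called genes (up to 5), the gene with the smallest adjusted p against Control, and the 5 genes most like the mean profile. Not every gene that this rule names is reported here. Symbols of the lists that were not matched (Gsg1l, Shisa9, Rasgrf2, Itgam and Pecam1) are not analysed here. Alternatives were other pseudocounts (1 and 0.01), filters, quantile normalization, fits of the groups compared, a replicate block, a length-trend correction per library, limma-voom on recovered fragments and leaving out each library.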

Additional observations from a re-analysis of the deposited data

How the results depend on the processing

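No subunit gene was called against Control in NPCT or PCT under any alternative run. The 1 call between NPCT and PCT, Grin3a, was 0 calls with a pseudocount of 1 (log2 -0.51), with the gene length trend removed, alone or with the replicate block (-0.56 in both), with limma-voom (-0.57), without NPCT replicate 3 (-0.51) and without PCT replicate 1 (-0.52). It kept its direction in all settings, and its fold change then lay under 1.5. Leaving out 1 library at a time gave 0 to 1 called subunit genes.

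Counts over all genes moved more. Between NPCT and Control 35 genes were called, and 208 with a mean of at least 1 FPKM, 9 with no filter, 189 with quantile normalization, 579 with only these groups fitted, 127 with the length trend removed and 390 with limma-voom, where the median log2 difference of all genes was 0.046 in place of 0.0062. Leaving out 1 library gave 0 to 562, the highest without PCT replicate 3. Between PCT and Control 368 were called, and 172 to 398 on leaving out 1 library. Between NPCT and PCT 918 were called, 454 with only these groups fitted, and 525 to 1623 on leaving out 1 library, the highest without PCT replicate 3.

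Over all genes the replicate numbers gave no sign of pairs, which does not exclude pairing in some genes. Departures from the group means of libraries with the same number correlated at -0.07 to 0.03, and of other libraries at -0.05 to 0.05. With the replicate number as a block 319 genes were called between NPCT and Control, against 35 without it. With the block and the length trend removed 187 were called. For the subunit genes the block changed no call. It brought the limma adjusted p between NPCT and Control to 0.0379 for Grin3a and 0.0445 for Gria4, with fold changes under 1.5.

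Ratios with a small difference turned in sign, the groups overlapping in each with all libraries in. With quantile normalization Grin2 / Grin1 between PCT and Control was 0.0022 (log2). On leaving out 1 library the log2 differences had these ranges. Between NPCT and PCT they were -0.15 to 0.027 for Grin2a / Grin2b, -0.017 to 0.31 for Grin2d / Grin2b, -0.18 to 0.13 for Grin2 / Grin1 and -0.087 to 0.015 for Gria2 / other AMPA genes. They were -0.21 to 0.10 for Grin2 / Grin1 between NPCT and Control, and -0.059 to 0.0030 for Grin2 / Grin1 and -0.082 to 0.027 for AMPA / NMDA genes between PCT and Control. Leaving out NPCT replicate 3 gave the positive sign for Grin2 / Grin1 against Control (0.10) and PCT (0.13, the remaining NPCT libraries both above PCT) and for Gria2 / other AMPA genes (0.015), and the negative sign for Grin2d / Grin2b (-0.017).

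Subunit genes with differences near 0 also turned in sign, none with a call. Leaving out 1 library, the log2 differences between NPCT and Control were -0.0039 to 0.055 for Gria1, -0.073 to 0.24 for Grin2a, -0.26 to 0.12 for Grin2b and -0.087 to 0.18 for Grin2c. They were -0.037 to 0.0050 for Gria4 and -0.16 to 0.091 for Grin2d between PCT and Control, and -0.13 to 0.18 for Grin2a and -0.056 to 0.33 for Grin2b between NPCT and PCT. Quantile normalization gave -0.036 for Gria1 (NPCT against Control) and -0.031 for Grin2a (NPCT against PCT), and removal of the length trend, with or without the block, gave 0.033 for Gria4 (PCT against Control). The cause was not tested in any of these. Of the other recomputed values, 572 for single subunit genes kept their direction and their side of the threshold. Another 375 were ratio differences that kept their sign or counts of called genes that stayed near the main count. Ratios had no threshold, and counts have no direction. The replicate block and the FPKM as deposited could hardly turn a sign. The block leaves mean differences as they were, and the deposited scaling differs by a factor that all libraries share. At 30 to 77 fragments, depth limits Grin2c most.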

Other observations

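Other glutamate receptor genes outside the AMPA and NMDA subunits above were read from the same fits. Metabotropic glutamate receptors, which act through G proteins, were 8 in the table and 6 tested, and all 6 had lower levels than Control with NPCT (median log2 difference -0.27) and with PCT (-0.28), where 7847 and 7819 of the 15958 genes tested were lower. The Control libraries are the same in both comparisons. Limma called Grm3 in PCT against Control, where 2.31% of all genes were called, and no other of the 6 in any comparison. Grm3, a receptor that lowers cAMP and is abundant in astrocytes, had 15.3 ± 2.25 FPKM in Control, 11.7 ± 3.51 in NPCT and 7.09 ± 0.968 in PCT (SD, n = 3, log2 -1.10 with PCT, limma adjusted p = 0.0299). Astrocyte markers moved with it: 5 of 10 were called lower in PCT than in Control, whereas 1, Gfap, was higher. The part of these markers in the Grm3 difference was not tested. Grm5, a postsynaptic receptor coupled to calcium release, had 51.8 ± 1.73, 41.5 ± 4.94 and 39.5 ± 4.04 FPKM (log2 -0.33 with NPCT, limma adjusted p = 0.0775, and -0.40 with PCT, limma adjusted p = 0.0618).

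None of 8 kainate, delta and Grin3b receptor genes was called in any comparison, and with NPCT limma gave an unadjusted p under 0.05 to 1 higher and 3 lower, with PCT to 0. Over all genes 0.219%, 2.31% and 5.75% were called in NPCT against Control, PCT against Control and NPCT against PCT, and 29.3% and 18.9% had such a p with NPCT and PCT. Grin3b, the paralogue of Grin3a, had 3.51 ± 0.212 FPKM in Control, 4.66 ± 0.219 in NPCT and 4.17 ± 0.510 in PCT (SD, n = 3). Its log2 difference between NPCT and Control was 0.40 (limma adjusted p = 0.0715), opposite in sign to that of Grin3a. Grik5, a high-affinity kainate receptor subunit, was the most abundant of this list, at 57.4 ± 4.73, 61.7 ± 5.17 and 51.8 ± 2.08 FPKM.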
